A study of Mus musculus with 6 samples.

Results

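The Schlafen genes are a family of interferon- and LPS-inducible genes that lie side by side on mouse chromosome 11. The 7 members described here (Slfn1, Slfn2, Slfn3, Slfn4, Slfn5, Slfn8 and Slfn9) were found by gene name and make up 7 of the 54532 genes in each deposited table. Where a symbol had several entries the one with the highest mean was to be kept, and each member had 1 entry. RNA sequencing was performed on C57BL/6 mouse macrophages that carried either small interfering RNA (siRNA) against the chemokine receptor gene Cxcr4, labelled siCXCR4, or a negative-control siRNA, labelled siNC, after transfection. Both groups were treated for 12 hours with 100 ng/ml of lipopolysaccharide (LPS), the bacterial ligand of the receptor TLR4, and no group without LPS was analysed here. The sample labels call the cells bone-marrow-derived, the series title monocyte-derived. The deposited columns have names that start with wt in siNC and with mko in siCXCR4. The meaning of mko is not explained in the sources used here, and the groups are named as the sample labels name them.

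The labels list 3 samples per group, but the table of siNC replicate 3 repeated, as counts and for each of the 19072 genes with reads, the reads of siNC replicate 2. The pair, which differed by less than sampling noise, enters as 1 sample. The comparison therefore rests on 2 siNC and 3 siCXCR4 libraries of 18890751 to 21780840 reads in genes. The labels do not say whether replicates are separate cultures or animals. The p-values therefore reflect only how far these libraries scatter, which may be technical. The targeted gene, Cxcr4, stood at 41.3 and 42.1 FPKM in the siNC libraries and at 31.1, 36.2 and 32.7 FPKM in the siCXCR4 libraries. FPKM, fragments per kilobase, divides reads by gene length and by the size of the library. The Cxcr4 groups did not overlap and differed by -0.32 (SE 0.0704) in log2(FPKM + 1), with an adjusted p of 0.457 by limma with Benjamini-Hochberg adjustment, 0.0637 by edgeR and 0.0589 by DESeq2. The exact two-sided permutation test gave p = 0.1, the smallest value that 2 libraries against 3 allow. All 8 macrophage markers examined were above 1 FPKM on average, with summed levels of 4287 to 4525 FPKM in siNC and 4149 to 4513 FPKM in siCXCR4. Of 8 neutrophil markers 5 passed that level, with sums of 105 to 109 FPKM in siNC and 84.2 to 99.6 FPKM in siCXCR4, while Ly6g, Mpo and Elane stayed under it, and no marker of T cells, B cells, dendritic cells, mast cells, fibroblasts or red cells reached it. The part of the neutrophil markers in any Schlafen value was not tested.

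Schlafen proteins share an amino-terminal core and come in 3 sizes. Slfn1 and Slfn2 are short, Slfn3 and Slfn4 are intermediate, and Slfn5, Slfn8 and Slfn9 are long and carry a carboxy-terminal helicase-like region. The family takes its name from the growth arrest that Slfn1 imposed on thymocytes. Slfn2 is best known from the mouse mutant elektra, whose T cells and inflammatory monocytes fail to stay quiescent, and its protein binds transfer RNA and shields it from cleavage. In macrophages several members are induced through TLR4, in large part by way of type I interferon.

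The size classes were visible in the annotated coding sequences (GENCODE M21, GRCm38). Coding length was 1014 bases for Slfn1 and 1137 bases for Slfn2, 1923 bases for Slfn3 and 1809 bases for Slfn4, 2655 bases for Slfn5, and 2733 bases for both Slfn8 and Slfn9. Aligned over their coding bases, Slfn8 and Slfn9 were 92.7% identical and Slfn3 and Slfn4 were 92.1% identical. All other pairs lay between 57.1% (Slfn1 and Slfn5) and 73.9% (Slfn2 and Slfn3). The first 60 coding bases of Slfn8 and Slfn9 are printed next, and capitals mark the 10 positions at which they differ. This stretch is less alike than the whole, in which 2534 of 2733 aligned bases were identical.

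Slfn8: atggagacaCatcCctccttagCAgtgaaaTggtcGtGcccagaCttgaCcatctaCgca
Slfn9: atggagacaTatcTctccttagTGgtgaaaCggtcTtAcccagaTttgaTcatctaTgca

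The same is shown for Slfn3 (coding bases 240 to 299) and Slfn4 (coding bases 138 to 197), again with 10 differing positions in capitals. It too is less alike than the whole, in which 1650 of 1791 aligned bases were identical.

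Slfn3: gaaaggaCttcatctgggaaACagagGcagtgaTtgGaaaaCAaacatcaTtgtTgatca
Slfn4: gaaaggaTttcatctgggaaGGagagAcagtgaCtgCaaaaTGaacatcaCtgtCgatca

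Sequence shared within the family bears on the counts. Of all stretches of 50 bases in the annotated transcripts, 14.6% in Slfn8, 11.2% in Slfn9, 8.15% in Slfn4, 7.39% in Slfn3, 4.27% in Slfn2 and 0.606% in Slfn1 also occurred in another Schlafen gene, and 0% in Slfn5. The partner that shared most was the pseudogene Slfn10-ps for Slfn8 (10.1%) and Slfn9 (8.1%). It was Slfn3 for Slfn4 (6.28%), and Slfn4 for Slfn3, Slfn2 and Slfn1. The sources used here do not say how reads that match several places were counted. The values of Slfn8, Slfn9, Slfn3, Slfn4, Slfn2 and Slfn1 are uncertain to that extent. Only transcripts of the 7 members, the pseudogene Slfn10-ps and Slfn14 were compared. Matches elsewhere in the genome were not searched, for Slfn5 or for any other member.

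**Figure D1:**
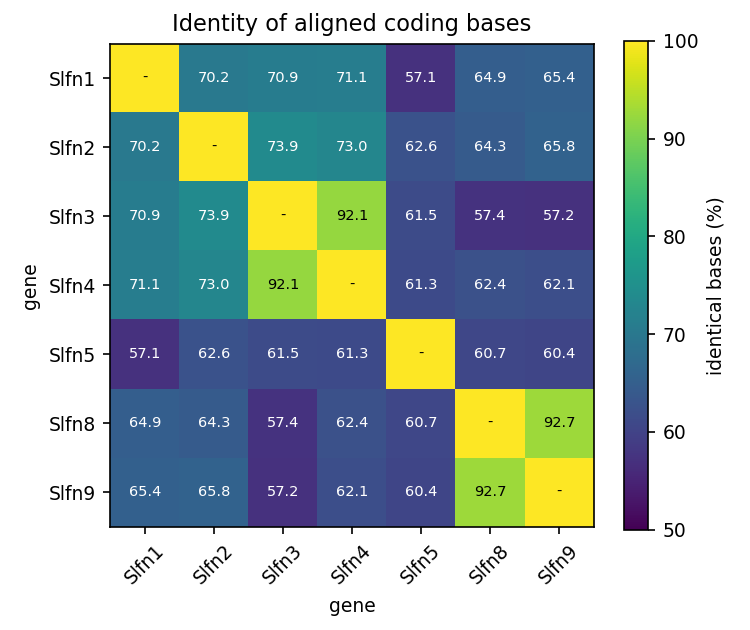
Percent of identical bases among aligned coding bases for each pair of the 7 Schlafen genes (both axes list the genes, colour and number give the percent). The Slfn8 and Slfn9 pair (92.7%) and the Slfn3 and Slfn4 pair (92.1%) stand above all other pairs, which lie at 73.9% or lower.

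The sequences before the RefSeq start sites are shown because the family is known for its response to interferon. They are RefSeq windows of 250 bases (GRCm38.p6), which existed for all 7 members, with 8 windows in all because Slfn8 has 2. The motifs searched were the following 4, each on both strands: the core of the interferon-stimulated response element (ISRE, GAAANNGAA), the gamma-activated site (TTCNNNGAA), the AP-1 site (TGANTCA) and the kappa-B site. No match overlapped a match to another motif. The ISRE core was found in 3 of 7 members, against 7.12% of all 32817 mouse windows of this length. Slfn5 held it 155 to 147 and 132 to 124 bases before its RefSeq start, Slfn8 held it 47 to 39 bases before the start of the window printed here, and Slfn9 held it 44 to 36 bases before. The RefSeq start of Slfn5 lies inside the gene as GENCODE annotates it, so these matches fall after the GENCODE start (82951349), and 117 of the 250 bases of its window are in annotated exons. In the 30-base stretches printed next, each read along the gene's own strand, capitals mark the match. They come from chr11:82951937-82951966 and chr11:82951960-82951989 on the plus strand for Slfn5, from chr11:83020838-83020867 on the minus strand for Slfn8 and from chr11:82991855-82991884 on the minus strand for Slfn9.

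Slfn5 upstream match: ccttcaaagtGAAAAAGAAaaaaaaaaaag
Slfn5 downstream match: aaaaaagctcTTCTCTTTCttaaagttaac
Slfn8: tttgagcagtTTCGTTTTCcccaaaagcaa
Slfn9: tccgagcagtTTCGTTTTCccaaaaacaag

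Slfn8 and Slfn9 shared the matched letters and most of what lies around them, and their whole windows were identical at 204 of 250 bases (81.6%). The gamma-activated site was found in 0 of 7 members, against 7.01% of all windows. An AP-1 match lay 34 to 28 bases before the start of Slfn4 (1 of 7 members, against 6.75% of windows), and kappa-B matches lay 43 to 34 bases before Slfn1 and 214 to 205 bases before Slfn9 (2 of 7, against 7.25%). A match describes the letters and does not show that a factor binds there, and an empty window says only that these letters are not in it. The window of Slfn2, the most abundant member, held none of the 4 motifs and is printed whole in lower case for that reason (chr11:83064862-83065111, plus strand).

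Slfn2: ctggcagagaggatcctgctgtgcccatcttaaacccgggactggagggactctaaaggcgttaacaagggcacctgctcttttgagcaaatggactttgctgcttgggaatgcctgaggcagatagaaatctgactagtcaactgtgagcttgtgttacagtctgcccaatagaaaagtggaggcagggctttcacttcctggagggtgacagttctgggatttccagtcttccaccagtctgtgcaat

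All 7 members were detected in every library, and all 7 passed the filter for testing, a mean of at least 1 FPKM over the libraries. Their mean levels spanned more than 2 orders of magnitude on the per-length FPKM scale. Slfn2 led in every library, at 124 to 169 times the level of Slfn3, which was last in every library. By mean level the order was Slfn2, Slfn1, Slfn5, Slfn4, Slfn8, Slfn9 and Slfn3. Slfn2 stood 4.34 to 5.32 times above Slfn1 within a library. Slfn1, Slfn5, Slfn4 and Slfn8 formed a middle group in which each gene's range over the libraries overlapped that of the next in order, while Slfn8 lay below Slfn1 and Slfn5 in 5 of 5 libraries with no overlap of ranges. The ratio within a library was 1.01 to 1.12 for Slfn1 over Slfn5, 0.989 to 1.31 for Slfn5 over Slfn4 and 0.912 to 1.18 for Slfn4 over Slfn8. Slfn5 exceeded Slfn4 in 4 of 5 libraries and Slfn4 exceeded Slfn8 in 3 of 5, so the place of Slfn4 beside these neighbours is not separated by the data. A wide step followed, from Slfn8 to Slfn9 (6.26 to 6.98 times), and another from Slfn9 to Slfn3 (3.42 to 3.92 times).

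**Figure D2:**
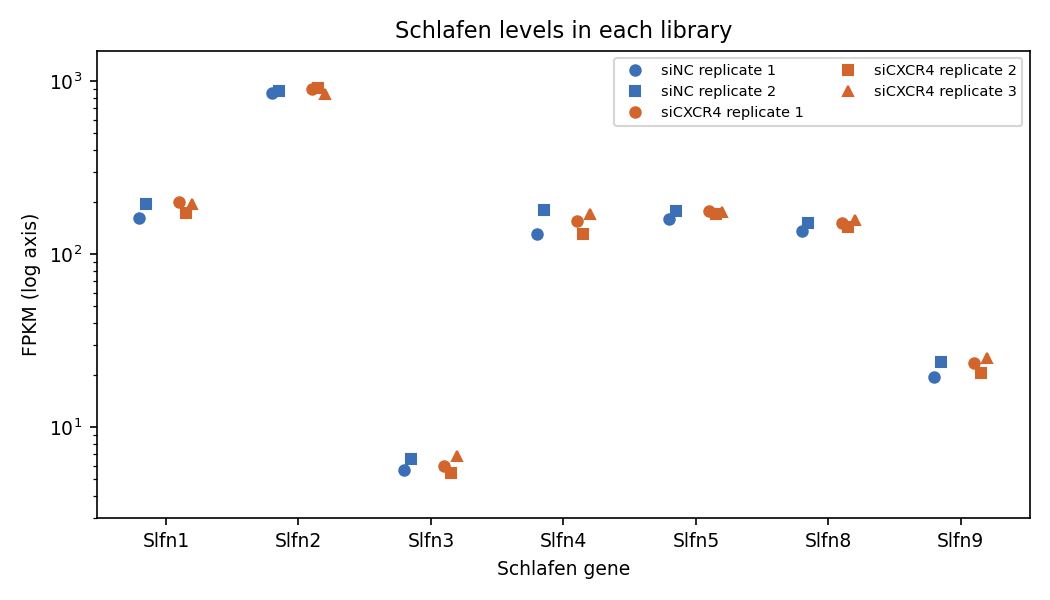
FPKM (vertical log axis) of each Schlafen gene (horizontal axis) in the 2 siNC libraries (blue) and the 3 siCXCR4 libraries (orange). Points of both colours overlap for all 7 genes, with Slfn2 between 847 and 916 FPKM at the top and Slfn3 between 5.41 and 6.83 FPKM at the bottom.

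Slfn2, the short member that protects transfer RNA (ENSMUSG00000072620, chr11:83065112-83070678, plus strand), was 1 of the most abundant messages of these cells, with rank 35 by mean FPKM among all genes. It stood at 857 and 878 FPKM in the siNC libraries and at 902, 916 and 847 FPKM in the siCXCR4 libraries, from 26995 to 32698 reads per library. The siCXCR4 libraries held both the highest and the lowest value, with both siNC values in between. The means were 867 ± 14.6 FPKM (SD, n = 2) in siNC and 888 ± 36.4 FPKM (SD, n = 3) in siCXCR4. The difference in log2(FPKM + 1) was 0.03 (SE 0.0586, 95% interval -0.11 to 0.17, adjusted p 0.876 by limma with Benjamini-Hochberg adjustment). That interval spans 0.929-fold to 1.13-fold. With a coefficient of variation of 3.31% over all libraries, Slfn2 was also the steadiest member.

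Slfn1, the other short member and the founding gene of the family (ENSMUSG00000078763, chr11:83116849-83122670, plus strand), had rank 243 by mean FPKM. Its levels were 162 and 195 FPKM in siNC and 199.5, 172 and 195 FPKM in siCXCR4, from 6222 to 8099 reads. The lowest value was a siNC library and the next lowest a siCXCR4 library, and the groups overlapped. Group means were 178.5 ± 22.8 FPKM (SD, n = 2) and 189.0 ± 14.7 FPKM (SD, n = 3). They differed by 0.08 in log2(FPKM + 1) (SE 0.0990, 95% interval -0.15 to 0.32, adjusted p 0.805 by limma with Benjamini-Hochberg adjustment).

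Slfn4, an intermediate member known from myeloid cells and induced by Toll-like receptor ligands in macrophages (ENSMUSG00000000204, chr11:83175186-83190216, plus strand), was the most variable of the 7. Its levels were 132 and 180.2 FPKM in siNC and 157, 130.3 and 170.2 FPKM in siCXCR4, from 10014 to 14082 reads. Both siNC libraries lay near opposite ends of the range, 0.45 apart in log2(FPKM + 1), and the coefficient of variation over all libraries was 14.6%. The siNC mean was 155.9 ± 34.3 FPKM (SD, n = 2) and the siCXCR4 mean 152.4 ± 20.3 FPKM (SD, n = 3). The difference of -0.02 in log2(FPKM + 1) (SE 0.172, adjusted p 0.979 by limma with Benjamini-Hochberg adjustment) had a 95% interval of -0.46 to 0.41. These libraries therefore bound a Slfn4 difference only to between 0.728-fold and 1.33-fold.

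Slfn3, the near-copy of Slfn4 and its neighbour (ENSMUSG00000018986, chr11:83191330-83215154, plus strand), was the scarcest member, with rank 5252 by mean FPKM and 358 to 446 reads per library. It has been studied mainly in T cells and intestinal epithelium. Values were 5.67 and 6.56 FPKM in siNC and 5.99, 5.41 and 6.83 FPKM in siCXCR4, so that the siCXCR4 libraries spanned the siNC libraries. Mean levels were 6.12 ± 0.625 FPKM (SD, n = 2) and 6.08 ± 0.710 FPKM (SD, n = 3), a difference of -0.01 in log2(FPKM + 1) (SE 0.0992, 95% interval -0.25 to 0.23, adjusted p 0.984 by limma with Benjamini-Hochberg adjustment). Slfn4 was 23.2 to 27.5 times the level of Slfn3 within a library, in spite of their 92.1% coding identity.

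Among the long members, Slfn5, an interferon-inducible gene (ENSMUSG00000054404, chr11:82951349-82964840, plus strand, rank 270), was measured at 161 and 178 FPKM in siNC and at 178, 171 and 175 FPKM in siCXCR4, from 20999 to 24584 reads. The siNC replicate 1 library was lowest and the other 4 lay close together. Slfn5 averaged 169.4 ± 12.5 FPKM (SD, n = 2) in siNC and 174.9 ± 3.59 FPKM (SD, n = 3) in siCXCR4. The groups differed by 0.05 in log2(FPKM + 1) (SE 0.0610, 95% interval -0.10 to 0.19, adjusted p 0.821 by limma with Benjamini-Hochberg adjustment).

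Slfn8, the more abundant of the long near-copies (ENSMUSG00000035208, chr11:83002158-83020810, minus strand, rank 318), stood at 136 and 153 FPKM in siNC and at 152, 143 and 158 FPKM in siCXCR4, from 11333 to 13555 reads. Again the lowest value was siNC replicate 1, and the siCXCR4 values fell on both sides of siNC replicate 2. The means of 144.0 ± 12.1 FPKM (SD, n = 2) and 151.0 ± 7.54 FPKM (SD, n = 3) differed by 0.07 in log2(FPKM + 1) (SE 0.0720, 95% interval -0.10 to 0.24, adjusted p 0.780 by limma with Benjamini-Hochberg adjustment).

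Slfn9 (ENSMUSG00000069793, chr11:82978390-82991830, minus strand, rank 2017) was measured at 19.4 and 23.8 FPKM in siNC and at 23.5, 20.5 and 25.2 FPKM in siCXCR4, from 2375 to 3048 reads. Its libraries fell in the same order as those of Slfn8, from siNC replicate 1 as the lowest to siCXCR4 replicate 3 as the highest. The means of 21.6 ± 3.08 FPKM (SD, n = 2) and 23.1 ± 2.36 FPKM (SD, n = 3) differed by 0.09 in log2(FPKM + 1) (SE 0.113, 95% interval -0.18 to 0.37, adjusted p 0.812 by limma with Benjamini-Hochberg adjustment).

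Set beside the whole table, no member passed the threshold of an adjusted p under 0.05 by limma, edgeR or DESeq2. By limma 0.0% of the 9943 genes tested passed, and 9.34% had an unadjusted p under 0.05, among them 0 of the 7 members. The shares passing were 0.133% of genes by edgeR (17 of 12794) and 0.333% by DESeq2 (28 of 8397). Adjusted p-values of the members ran from 0.780 to 0.984 by limma and from 0.863 to 0.968 by edgeR, and were 0.9996 for all 7 by DESeq2. The exact two-sided permutation test gave 0.5 to 0.9 for each member. Of the members 5 were higher and 2 (Slfn3 and Slfn4) lower in siCXCR4, and of all 9943 genes tested 5607 were higher and 4336 lower. The median difference of the members was 0.05 in log2(FPKM + 1) against 0.01 over all genes tested. With only reads in genes as denominator the median over all genes was -0.0083 and Slfn2 differed by 0.0056, while each member kept its sign. Except for Slfn2, the members' directions by limma hung on single libraries. Without siNC replicate 1 limma gave -0.05 for Slfn1, -0.03 for Slfn5, -0.02 for Slfn8 and -0.05 for Slfn9. Without siNC replicate 2 it gave 0.08 for Slfn3 and 0.20 for Slfn4, and without siCXCR4 replicate 2 it gave 0.06 and 0.08 for this pair. For Slfn2 limma gave 0.011 to 0.067 with 1 library left out, and -0.02 with quantile normalization of all libraries. The groups did not overlap for 27.8% of all genes tested and for 0 of the 7 members. In log2(FPKM + 1) the gap between the siNC libraries was larger than the group difference for 7 of 7 members, against 55.0% of all genes tested. For Slfn2 the gap and the difference were nearly equal, 0.0342 against 0.0336, and on the FPKM scale this order does not hold. A difference that misses the threshold does not show that the groups are equal, and the intervals above give the sizes that these libraries leave possible. In bulk RNA fewer cells of a type and less RNA per cell cannot be told apart.

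**Figure D3:**
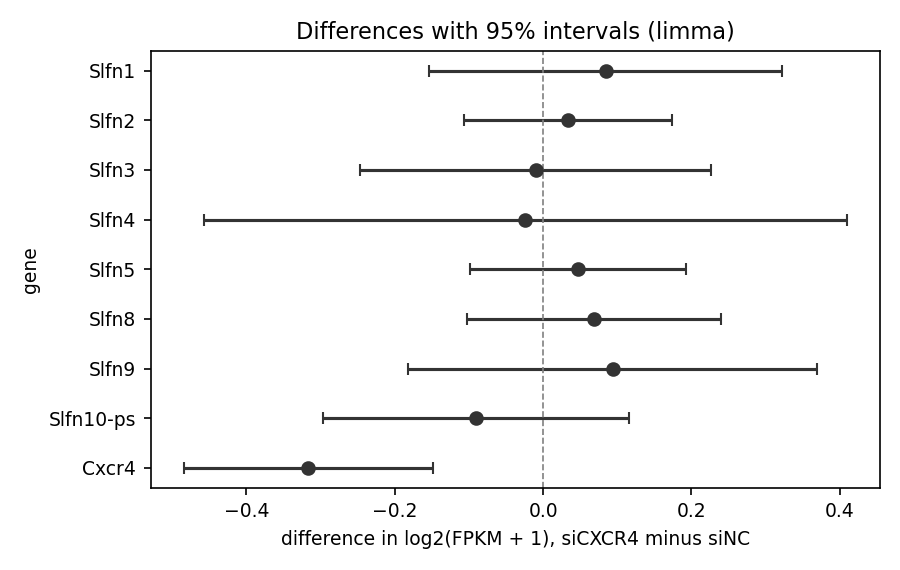
Difference in log2(FPKM + 1), siCXCR4 minus siNC (horizontal axis), with its 95% interval from limma, for the 7 Schlafen genes, the pseudogene Slfn10-ps and Cxcr4. All 7 member intervals include 0, the widest being that of Slfn4 (-0.46 to 0.41), while Cxcr4 lies at -0.32.

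The spread of 6 members over the libraries followed a like pattern. For Slfn1, Slfn3, Slfn4, Slfn5, Slfn8 and Slfn9 the lowest pair of libraries was siNC replicate 1 and siCXCR4 replicate 2, which belong to different groups. This pair was lowest for 12.0% of all genes tested, and the measure was chosen after the values were seen. Slfn2 was the exception, since siCXCR4 replicate 2 held its highest value and siCXCR4 replicate 3 its lowest. All members share the same 5 libraries, and Slfn8 with Slfn9 and Slfn3 with Slfn4 share sequence as well.

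**Figure D4:**
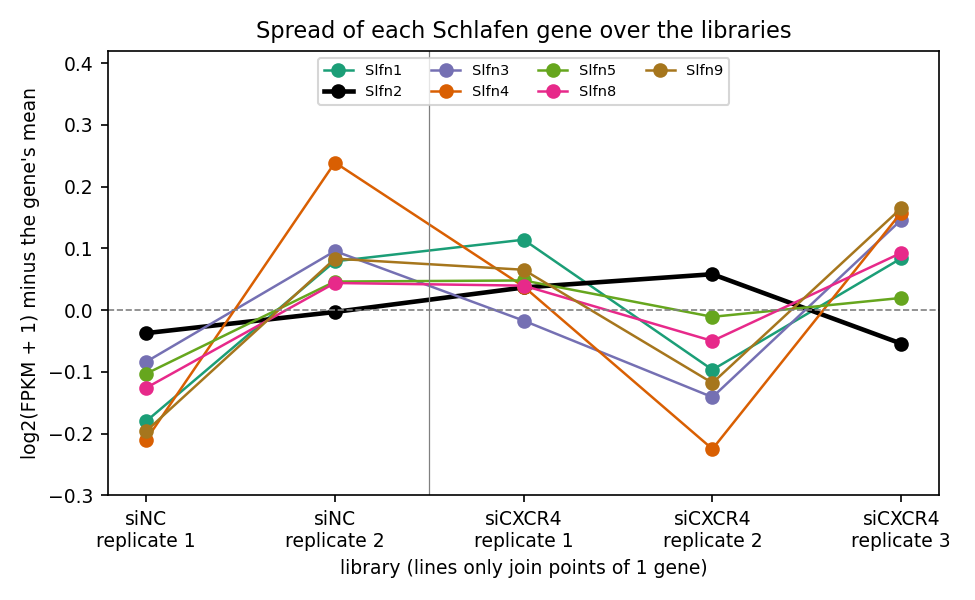
Each Schlafen gene's log2(FPKM + 1) minus its mean over the 5 libraries (vertical axis), by library (horizontal axis, siNC left of the line, siCXCR4 right). For 6 genes siNC replicate 1 and siCXCR4 replicate 2 are the lowest pair, and Slfn2 (black) is the exception.

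Summed over the 7 members, Schlafen messages reached 1472 and 1614 FPKM in siNC and 1618, 1558 and 1577 FPKM in siCXCR4. The siNC libraries enclosed 2 of the 3 siCXCR4 libraries, and the means were 1543 ± 99.9 FPKM (SD, n = 2) and 1585 ± 30.6 FPKM (SD, n = 3). The difference of 41.6 FPKM became 11.6 FPKM when only reads in genes were used as the denominator. The share of the denominator outside genes was 2.80% and 2.15% in siNC and 0.00033%, 0.31% and 1.37% in siCXCR4, without overlap. Slfn2 supplied 53.7% to 58.8% of this sum, 56.3% ± 2.70 (SD, n = 2) in siNC and 56.1% ± 2.55 (SD, n = 3) in siCXCR4. The steadiest share was that of Slfn5, 10.9% to 11.1%, and the share of Slfn4 ranged from 8.36% to 11.2%. Slfn1 supplied 11.0% to 12.4%, Slfn8 supplied 9.17% to 10.01%, Slfn9 supplied 1.32% to 1.60% and Slfn3 supplied 0.347% to 0.433%. Without Slfn2 the sum was 615 and 736 FPKM in siNC and 716, 643 and 730 FPKM in siCXCR4, with the lowest value in each group in the pair of libraries named above.

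Along chromosome 11 the Schlafen cluster spanned 335 kb (chr11:82951349-83286726) and level did not follow position. From the Slfn5 end the order was Slfn5, Slfn9, Slfn8, the pseudogene Slfn10-ps, Slfn2, Slfn1, Slfn4, Slfn3 and Slfn14. The scarcest member, Slfn3, adjoined Slfn4, and Slfn9 lay between the more abundant Slfn5 and Slfn8. Slfn10-ps (chr11:83028130-83040042, minus strand), a copy that is transcribed but annotated as a pseudogene, stood at 10.8 and 12.2 FPKM in siNC and at 9.73, 11.7 and 10.9 FPKM in siCXCR4. It differed by -0.09 in log2(FPKM + 1) (SE 0.0864, adjusted p 0.753 by limma with Benjamini-Hochberg adjustment), and 19.7% of its 50-base stretches occurred in another Schlafen gene. Slfn14, a long member known from red cell precursors and platelets, had 0 to 2 reads per library. The related Slfnl1 on chromosome 4 had 0 to 1 read and the antisense gene Slfn5os had 0 to 7 reads, and none of these 3 was tested. Slfn5os overlaps Slfn5 on the opposite strand, as Gm20234 (52 to 79 reads) overlaps Slfn2. Whether strand was used in counting is not stated in the sources used here, and the reads of these partners cannot be told apart.

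**Figure D5:**
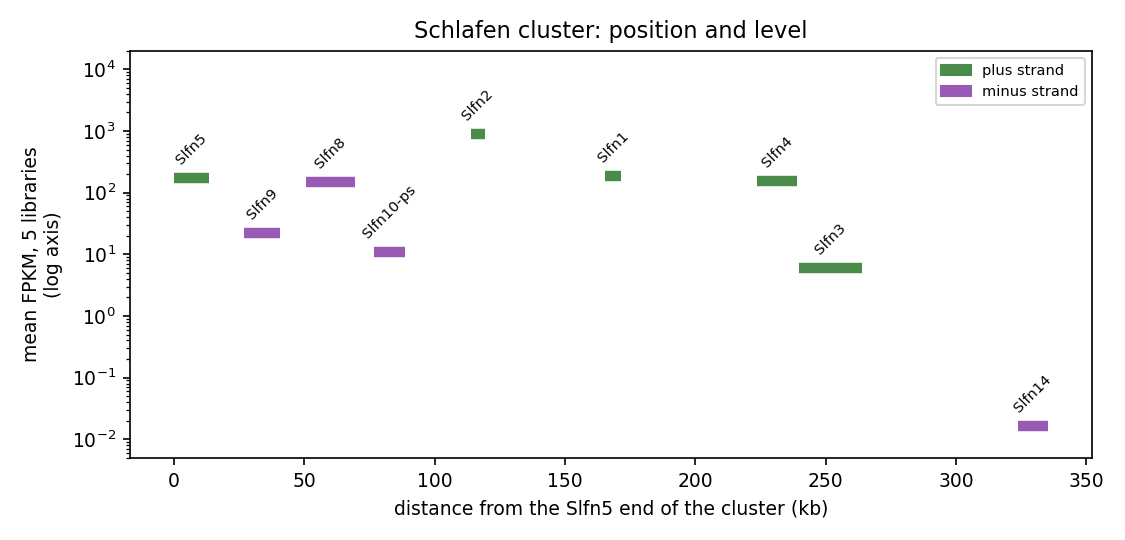
Mean FPKM over the 5 libraries (vertical log axis) of the 9 Schlafen entries on chromosome 11, drawn from start to end at their distance from the Slfn5 end of the cluster (horizontal axis, kb) and coloured by strand. Slfn2 is highest and Slfn14, with 0 to 2 reads per library, is lowest, and neighbours such as Slfn4 and Slfn3 differ widely in level.

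The interferon pathway that induces Schlafen genes was read from a list of 34 ligands, receptors, kinases, factors, inhibitors and targets, of which 26 passed the filter. In siCXCR4 20 were higher and 6 lower, 5 had an unadjusted p under 0.05 and were higher, 0 were lower at that level, and 0 passed the threshold. Over all genes tested 9.34% had such a p, 577 higher and 352 lower of 9943, and 0.0% passed the threshold by limma. At any p, 5607 of these 9943 genes were higher and 4336 lower. The median difference was 0.06 in log2(FPKM + 1), against 0.05 for the Schlafen members and 0.01 over all genes. With only reads in genes as denominator the median was 0.035 for the list and -0.0083 over all genes. The groups did not overlap for 9 of 26, against 27.8% of all genes tested. Of the 9 ligands only Ifng passed the filter, named here after its values were seen. By limma the 4 receptors and 3 kinases were all higher, and the groups did not overlap for 2 of the receptors and 2 of the kinases. The receptor gene Ifnar1, named after its values were seen, differed by only 0.0011 by limma, and by -0.017 by edgeR and -0.010 by DESeq2. The factors split into 5 higher and 3 lower, the inhibitors into 2 and 1, and the targets into 6 and 1. Among the abundant targets, Isg15, a ubiquitin-like modifier, stood at 2084 and 2114 FPKM in siNC and at 2121, 2168 and 1902 FPKM in siCXCR4. Like Slfn2 it had its highest value in siCXCR4 replicate 2 and its lowest in siCXCR4 replicate 3. Rsad2, the antiviral enzyme viperin, stood at 916 and 1075 FPKM in siNC and at 1197, 1086 and 1156 FPKM in siCXCR4, without overlap.

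Irf7, the factor that amplifies type I interferon, was measured at 581 and 622 FPKM in siNC and at 696, 625 and 660 FPKM in siCXCR4. Usp18, which dampens signalling from the type I interferon receptor and removes ISG15 from proteins, was measured at 218 and 226 FPKM in siNC and at 269, 246 and 257 FPKM in siCXCR4. Both were higher in every siCXCR4 library than in every siNC library, with adjusted p of 0.577 for Irf7 and 0.488 for Usp18 by limma with Benjamini-Hochberg adjustment. Cxcl10, a chemokine, was measured at 532 and 608 FPKM in siNC and at 630, 495 and 601 FPKM in siCXCR4, with the lowest pair the same as for the 6 Schlafen genes. That pair was lowest for 10 of the 26 tested pathway genes, against 12.0% of all genes tested. The genes with an unadjusted p under 0.05 were Usp18, Ifit1, Ifit3, Rsad2 and Jak1, the last named after its values were seen.

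Since Slfn2 guards transfer RNA, genes of transfer RNA cleavage and protection were read in the same fit. Of 7 listed, 6 passed the filter, 4 higher and 2 lower in siCXCR4. By limma 0 of the 6 passed the threshold, as did 0 of all 9943 genes tested. The lowest adjusted p of the 6 was 0.488 by limma with Benjamini-Hochberg adjustment. Rnh1, the inhibitor of secreted ribonucleases such as angiogenin, stood at 67.8 and 68.1 FPKM in siNC and at 82.4, 76.4 and 75.5 FPKM in siCXCR4, a difference of 0.20 in log2(FPKM + 1). Nsun2, which methylates cytosines in transfer RNA, stood at 11.1 and 11.0 FPKM in siNC and at 12.6, 12.3 and 12.7 FPKM in siCXCR4, a difference of 0.17. In both genes the groups did not overlap and the unadjusted p was under 0.05. Trdmt1, Elac2 and Dicer1 overlapped between the groups, and Ang, which encodes the transfer RNA nuclease angiogenin, was too low to test.

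The genes whose pattern over the 5 libraries was most like that of Slfn2 were sought by the root-mean-square difference of log2(FPKM + 1) values centred on each gene's mean. Candidates were the 9809 tested genes with a standard deviation of at least that of Slfn2 (0.0476) divided by 2. The Slfn2 pattern itself was thus a small scatter. Rer1 was nearest at 0.00601, followed by Tmem192 at 0.00790, Fastk at 0.00901, Ctsb at 0.00961 and Gtf2b at 0.00967. Ctsb, a lysosomal protease, was more abundant than Slfn2, at 1518 and 1566 FPKM in siNC and at 1618, 1639 and 1531 FPKM in siCXCR4. No Schlafen gene was among these 5, which describe likeness over 5 libraries only.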

How the data were processed

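RNA sequencing tables of 6 labelled samples were used. In 5 tables the authors deposited FPKM values; the unit was inferred from the values, since multiplying by gene length gave, in each library, whole multiples of the value of 1 read (tolerance 0.05, 100% of values), and RPKM cannot be told apart from it. In the table of siNC replicate 3 the authors deposited read counts, equal to the reads of siNC replicate 2. Aligner, counting tool, strand setting and the treatment of multiply matching reads: not given in the sources used here. Per the submitters' processing notes the build is mm9, but 53499 of 54409 genes shared with GENCODE M21 (98.3%) and all 7 members had the same position in GRCm38, so positions are given in GRCm38.

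The members and gene lists were chosen with earlier results of these data known. The comparison used limma 3.58.1 in R 4.3.3 (trend and robust estimate, two-sided) on log2(FPKM + 1) of 9943 genes whose mean reached 1 FPKM, with Benjamini-Hochberg adjusted p under 0.05 over all genes. The fit had been written for whatever libraries proved distinct, here 2 siNC and 3 siCXCR4. Single genes were also tested with an exact permutation test (scipy 1.17.1). On whole reads worked back from FPKM, edgeR 4.0.16 (TMM, quasi-likelihood) and DESeq2 1.42.0 were run as alternatives and called 17 and 28 genes. The limma and edgeR tests were also run on simulated counts with planted changes and the same dispersion for every gene. That simulation did not model the differences in scatter between these libraries. For 102 symbols with several entries the highest mean was kept. Genes were named by rule: the members, Cxcr4, every other Slfn-named entry, up to 12 genes per list by mean FPKM, the 3 nearest protein-coding genes on each side of the cluster, and the 5 patterns nearest to Slfn2. Some genes that this rule names are not reported here. Other alternatives were pseudocount 0.1, no filter, a minimum mean of 5 FPKM, quantile and median scaling, reads in genes as denominator, limma without trend and robust estimate, summed entries, the copy as a separate replicate, a replicate block and each library left out. edgeR with each library left out or with the block was chosen after seeing the data.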

Additional observations from a re-analysis of the deposited data

How the results depend on the processing

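With 2 siNC libraries against 3, no member passed the threshold under any of the 24 alternatives. The lowest adjusted p of a member was 0.418, by edgeR without siCXCR4 replicate 2. Of the members' 168 differences 19 changed sign, at least 2 for each member. Some of the 168 could not change: the differences stay the same with no filter, a minimum mean of 5 FPKM or summed entries. The same holds for limma without trend and robust estimate. Leaving out 1 library at a time, limma gave -0.045 to 0.21 for Slfn1, 0.011 to 0.067 for Slfn2, -0.10 to 0.080 for Slfn3, -0.25 to 0.20 for Slfn4, -0.027 to 0.12 for Slfn5, -0.016 to 0.15 for Slfn8 and -0.046 to 0.23 for Slfn9. By edgeR without siNC replicate 1 the differences were -0.061 for Slfn1, -0.0015 for Slfn2, -0.046 for Slfn5, -0.034 for Slfn8 and -0.062 for Slfn9. By edgeR without siNC replicate 2 they were 0.084 for Slfn3 and 0.20 for Slfn4, and without siCXCR4 replicate 2 they were -0.0052 for Slfn2, 0.050 for Slfn3 and 0.050 for Slfn4. Quantile normalization gave -0.024 for Slfn2. The difference of the summed family level, 41.6 FPKM, ranged from -29.0 FPKM without siNC replicate 1 to 112 FPKM without siNC replicate 2, and was 11.6 FPKM with reads in genes as denominator. Values with a library left out rest on fewer samples, and the cause of the other shifts was not tested. Slfn3 had the fewest reads of the members, 358 to 446 per library, and the part of depth in its spread was not tested.

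Over all genes, limma's 0 calls became 6 with the copy as a separate replicate and ranged from 0 to 2 with 1 library left out (2 without siCXCR4 replicate 2). edgeR called 17, or 205 without a filter, and DESeq2 28. The 17 edgeR calls ranged from 0 without siCXCR4 replicate 1 to 312 without siCXCR4 replicate 2, with 5 without siNC replicate 1 and 3 without siCXCR4 replicate 3. The adjusted p of Cxcr4 ranged from 0.000475 by edgeR without a filter to 0.866 by limma without siNC replicate 1. It was also under the threshold by edgeR without siCXCR4 replicate 2 (0.00104). Same-numbered libraries did not deviate together (r = -0.04 for replicate 1, -0.11 for replicate 2), so the numbers were not read as pairs. With a replicate block limma called 0 genes and edgeR 30, and no member was called.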

Other observations

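Around and between the Schlafen genes, no gene passed the threshold by limma, and neither did any other of the 9943 genes tested. Among the nearest protein-coding genes were Fndc8, Nle1 and Unc45b before the Slfn5 end and Ap2b1 and Rasl10b beyond Slfn14. Fndc8, Unc45b and Rasl10b had at most 5 reads in any library. Nle1, a ribosome biogenesis gene, stood at 2.26 and 1.85 FPKM in siNC and at 1.59, 1.71 and 2.26 FPKM in siCXCR4. Ap2b1, a subunit of the clathrin adaptor AP-2, stood at 20.3 and 19.1 FPKM in siNC and at 20.1, 19.9 and 21.1 FPKM in siCXCR4. In all of these the groups overlapped. Inside the cluster 16 other entries were listed, mostly pseudogenes and noncoding RNA genes, of which 5 passed the filter, 0 passed the threshold and 5 had no reads.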
